A study of Mus musculus with 11 samples.

Results

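The collagen genes of the mouse liver were followed across 3 genotypes. A gene entered the family when a probe set on the array carried a single gene symbol of the form Col, number, a, number, and the brightest such probe set, by its mean over the 11 arrays, stood for the gene. This gave 44 collagen genes of the 19938 genes measured, represented by 46 probe sets, since Col6a5 and Col6a6 had 2 each. All samples were liver of male mice aged 14 months. The wild-type group held 3 arrays, from C57BL/6 mice. The Mdr2-KO group held 4 arrays from mice lacking Mdr2 (gene symbol Abcb4), the transporter that moves phospholipid from hepatocytes into bile. The Mdr2-KO/IL6-KO group held 4 arrays from mice lacking both Mdr2 and the cytokine interleukin 6. Tissue of both knockout groups is labelled tumour-free. The labels give the knockout mice no strain of their own, and there was no group lacking interleukin 6 alone, so the effect of its loss could be read only on the Mdr2-KO background. Each array measured RNA of whole tissue in log2 units, so a difference of 1 is a 2-fold difference, and a group is given below as wild-type arrays 1 to 3 and knockout arrays 1 to 4 in the order of the samples.

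Collagens are secreted or membrane proteins built from chains that wind around each other into a triple helix, and a collagen type is one particular set of chains. Fibrillar collagens form the cables of scar tissue, type IV forms the sheet of basement membranes, type VI forms beaded filaments between them, and FACIT collagens sit on the surface of fibrils. In the liver, collagen is made mainly by stellate cells and portal fibroblasts, and its build-up around bile ducts is a hallmark of chronic bile duct injury, for which mice without Mdr2 are a standard model.

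The promoters of 4 collagen genes are shown as examples: Col1a2 and Col3a1, chains of the fibrillar types I and III, and Col6a3 and Col6a1, partner chains of type VI. The sequences are RefSeq's for build GRCm38.p6, each read along the gene's own strand. Col1a2 is the plus-strand window chr6:4505368-4505617 and Col3a1 the plus-strand window chr1:45311288-45311537, both ending at the base before the transcript start. Col6a3 is the minus-strand window chr1:90844002-90844221, ending 30 bases before the start, and Col6a1 the minus-strand window chr10:76726045-76726294. Capitals mark matches, searched on either strand, to CCAAT (the CCAAT box), to GGGCGG (the GC box), to TATAAA (the TATA box) and to TGANTCA (the letters bound by AP-1 factors); none of these overlaps another here.
Col1a2: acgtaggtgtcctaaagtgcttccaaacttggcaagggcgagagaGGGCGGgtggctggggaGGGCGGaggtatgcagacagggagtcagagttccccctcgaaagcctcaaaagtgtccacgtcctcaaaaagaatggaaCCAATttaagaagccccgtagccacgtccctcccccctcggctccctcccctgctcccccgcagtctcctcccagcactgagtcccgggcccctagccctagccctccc
Col3a1: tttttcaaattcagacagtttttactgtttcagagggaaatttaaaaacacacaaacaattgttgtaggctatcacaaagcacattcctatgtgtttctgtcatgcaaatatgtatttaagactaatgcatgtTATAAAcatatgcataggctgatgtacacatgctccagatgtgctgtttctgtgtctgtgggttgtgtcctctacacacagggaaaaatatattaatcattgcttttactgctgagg
Col6a3: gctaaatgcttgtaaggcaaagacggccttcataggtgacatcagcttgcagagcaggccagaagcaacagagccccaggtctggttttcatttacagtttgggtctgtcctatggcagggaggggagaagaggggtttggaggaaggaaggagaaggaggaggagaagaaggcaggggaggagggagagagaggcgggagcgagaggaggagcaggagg
Col6a1: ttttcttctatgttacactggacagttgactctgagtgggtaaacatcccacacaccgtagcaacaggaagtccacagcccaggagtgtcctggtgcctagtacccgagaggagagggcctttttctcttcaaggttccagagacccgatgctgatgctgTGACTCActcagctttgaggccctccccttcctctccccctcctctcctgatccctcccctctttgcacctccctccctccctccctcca
The Col1a2 window held a CCAAT match ending 105 bases before the start and GGGCGG matches at 200 and 183 bases. The Col3a1 window held TATAAA at 112 bases, the Col6a1 window held TGANTCA at 84 bases, and the printed Col6a3 window held none of the 4. RefSeq windows were found for 35 of the 44 collagen genes, 38 windows in all. CCAAT was in 34.2% of the collagen windows and in 33.8% of all 32851 promoter windows of the same length. GGGCGG was in 57.9% of the collagen windows and in 32.7% of all windows, TATAAA in 13.2% against 12.4%, and TGANTCA in 2.63% against 6.75%. These are matches of letters only.

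The arrays correlated with each other at 0.976 to 0.990, and array medians lay between 5.09 and 5.23. The targeted gene Abcb4 fell from a mean of 9.83 in wild type to 7.74 in Mdr2-KO liver and 8.09 in Mdr2-KO/IL6-KO liver. Il6 lay near the floor in every group, at 1.80, 2.02 and 1.91, so its level checks no label. The 6 hepatocyte markers measured, which include Alb, were high in every array, with list means from 12.22 to 12.38. Of the collagen genes, 25 lay above the median gene (5.57) and 19 did not, and RMA values have no true zero, so a low value does not say that a gene was off. Nothing in the labels says that each array came from a separate mouse, so the p-values speak only of the spread between these samples. In RNA of whole tissue, fewer cells of a type and less RNA per cell cannot be told apart. Wild-type sample names carry another prefix than the knockout names, and any difference between such series cannot be told apart from genotype.

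In Mdr2-KO liver, 5 of the 44 collagen genes passed the test as higher than wild type and none as lower: Col1a1, Col1a2, Col3a1, Col6a3 and Col12a1. That is 11.4% of the family, where 0.948% of all genes passed as higher, 0.316% as lower and 1.26% in either direction. In Mdr2-KO/IL6-KO liver, 7 passed as higher than wild type and none as lower, namely Col5a2, Col4a2 and those just named. That is 15.9% of the family, where 2.91% of all genes passed as higher, 1.28% as lower and 4.19% in either direction. Between the knockout groups no collagen gene passed, where 0.00502% of all genes did. The test was limma's moderated test with Benjamini-Hochberg adjustment over all 19938 genes, two-sided, passing at an adjusted p under 0.05. Both comparisons with wild type rest on the same 3 wild-type arrays, so their values stand side by side and do not support each other.

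The calls lay in a few members. The median change over the 44 genes was 0.03 in Mdr2-KO liver and 0.01 in Mdr2-KO/IL6-KO liver, beside medians over all genes of -0.01 and -0.00. In Mdr2-KO, 25 collagen genes had a positive change and 19 a negative one, where 48.3% of all genes were positive. In Mdr2-KO/IL6-KO the split was 23 and 21, where 49.8% of all genes were positive. Every knockout array lay above every wild-type array for 9 collagen genes in Mdr2-KO, where 5.49% of all genes did so, and for 10 in Mdr2-KO/IL6-KO, where 9.85% did. Under an unadjusted p of 0.05 there were 8 higher and 0 lower in Mdr2-KO, against 5.69% of all genes higher and 4.09% lower, and 12 higher and 0 lower in Mdr2-KO/IL6-KO, against 9.4% and 6.1%.

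**Figure D1:**
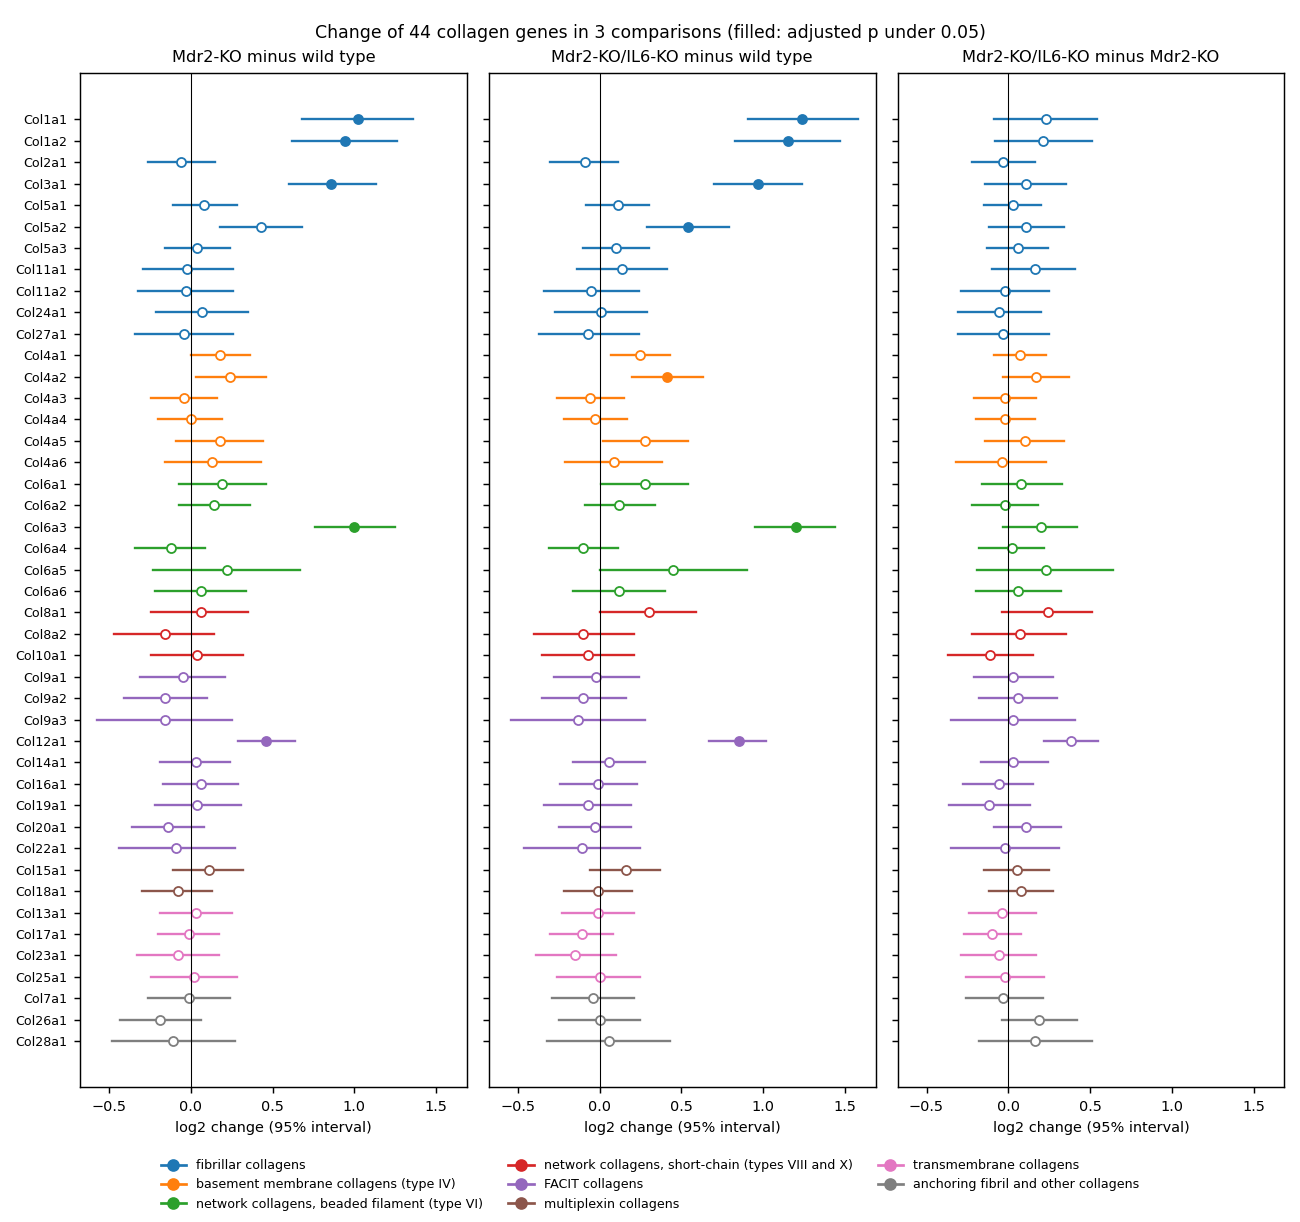
Log2 change of each of the 44 collagen genes in the 3 comparisons (x axis), with 95% confidence intervals from limma, coloured by collagen class; filled points passed at an adjusted p under 0.05. The filled points are 5 genes in Mdr2-KO liver and 7 in Mdr2-KO/IL6-KO liver, all to the right of 0, and none between the knockout groups.

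Among the 11 fibrillar collagens, 3 rose in Mdr2-KO liver and 4 in Mdr2-KO/IL6-KO liver. Col1a1 and Col1a2 encode the chains of type I collagen, the main protein of scar fibrils. Col1a1 measured 7.34, 6.91 and 7.20 in wild type, 8.27, 8.16, 8.09 and 8.15 in the Mdr2-KO arrays and 8.18, 8.55, 8.79 and 8.06 in the Mdr2-KO/IL6-KO arrays. Every knockout array lay above every wild-type array, and the knockout groups overlapped. Col1a1 rose by 1.02 ± 0.16 (SE) in Mdr2-KO, a 2.03-fold change (adjusted p = 0.00561, limma), and by 1.24 ± 0.16 in Mdr2-KO/IL6-KO, 2.37-fold (adjusted p = 0.000623). The 4 Mdr2-KO arrays were close together (SD 0.0732), while the Mdr2-KO/IL6-KO arrays had an SD of 0.337 and held both the highest and the lowest knockout values.

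Col1a2 measured 7.0, 6.60 and 6.97 in wild type, 7.81, 7.76, 7.72 and 7.88 in the Mdr2-KO arrays and 8.0, 8.16, 8.28 and 7.58 in the Mdr2-KO/IL6-KO arrays. It ran like its partner, with Mdr2-KO/IL6-KO replicate 3 highest and replicate 4 lowest among the knockouts. It rose 1.92-fold in Mdr2-KO (0.94 ± 0.15 SE, adjusted p = 0.00679, limma) and 2.22-fold in Mdr2-KO/IL6-KO liver (1.15, adjusted p = 0.000738). The difference between the log2 changes of Col1a1 and Col1a2 was 0.08 in Mdr2-KO liver and 0.09 in Mdr2-KO/IL6-KO liver, with exact permutation p = 0.229 and 0.343 on the per-array difference of their levels.

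Col3a1 encodes the single chain of type III collagen, which forms the fine reticulin fibrils of liver. It measured 7.11, 6.76 and 7.07 in wild type, 7.77, 7.72, 7.97 and 7.92 in the Mdr2-KO arrays and 7.84, 8.12, 8.13 and 7.72 in the Mdr2-KO/IL6-KO arrays. No knockout array came down to a wild-type value. Col3a1 rose 1.82-fold in Mdr2-KO (0.86 ± 0.12 SE, adjusted p = 0.00378, limma) and 1.96-fold in Mdr2-KO/IL6-KO liver (0.97, adjusted p = 0.000653).

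Type V collagen is a minor fibrillar collagen that is built into type I fibrils and sets their diameter. Its chain Col5a2 measured 5.18, 4.74 and 5.07 in wild type, 5.43, 5.49, 5.29 and 5.5 in the Mdr2-KO arrays and 5.47, 5.51, 5.75 and 5.40 in the Mdr2-KO/IL6-KO arrays. All knockout arrays exceeded the wild-type arrays. Col5a2 rose 1.45-fold in Mdr2-KO/IL6-KO (0.54 ± 0.12 SE, adjusted p = 0.0188, limma), and in Mdr2-KO the change of 0.43 did not pass (adjusted p = 0.115). The Mdr2-KO/IL6-KO call was lost without wild-type replicate 2 (adjusted p = 0.0869) or without Mdr2-KO/IL6-KO replicate 3. Col5a2 lies beside Col3a1 on chromosome 1.

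The other chains of type V had smaller changes, none of which passed. Col5a1, with array values from 5.93 to 6.08 in wild type and 5.99 to 6.23 over both knockout groups, had changes of 0.08 and 0.11. Col5a3 had changes of 0.04 and 0.10. The change of Col5a2 exceeded that of Col5a1 by 0.35 in Mdr2-KO liver and 0.43 in Mdr2-KO/IL6-KO liver, and that of Col5a3 by 0.39 and 0.44. In each of these 4 pairings the per-array difference of levels did not overlap between knockout and wild type. The exact permutation p was 0.0571, two-sided, and 0.114 after adjustment over 18 such tests. Because 0.0571 is the smallest p that 3 against 4 arrays allow, no pair could pass, and the test cannot decide whether the chains differ. Col5a2 was set against its partners as the chain with the largest change, which favours a difference.

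The remaining fibrillar chains, Col2a1, Col11a1, Col11a2, Col24a1 and Col27a1, belong to collagens best known from cartilage and bone. Their changes ran from -0.06 to 0.07 in Mdr2-KO and from -0.09 to 0.14 in Mdr2-KO/IL6-KO liver, and none passed.

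**Figure D2:**
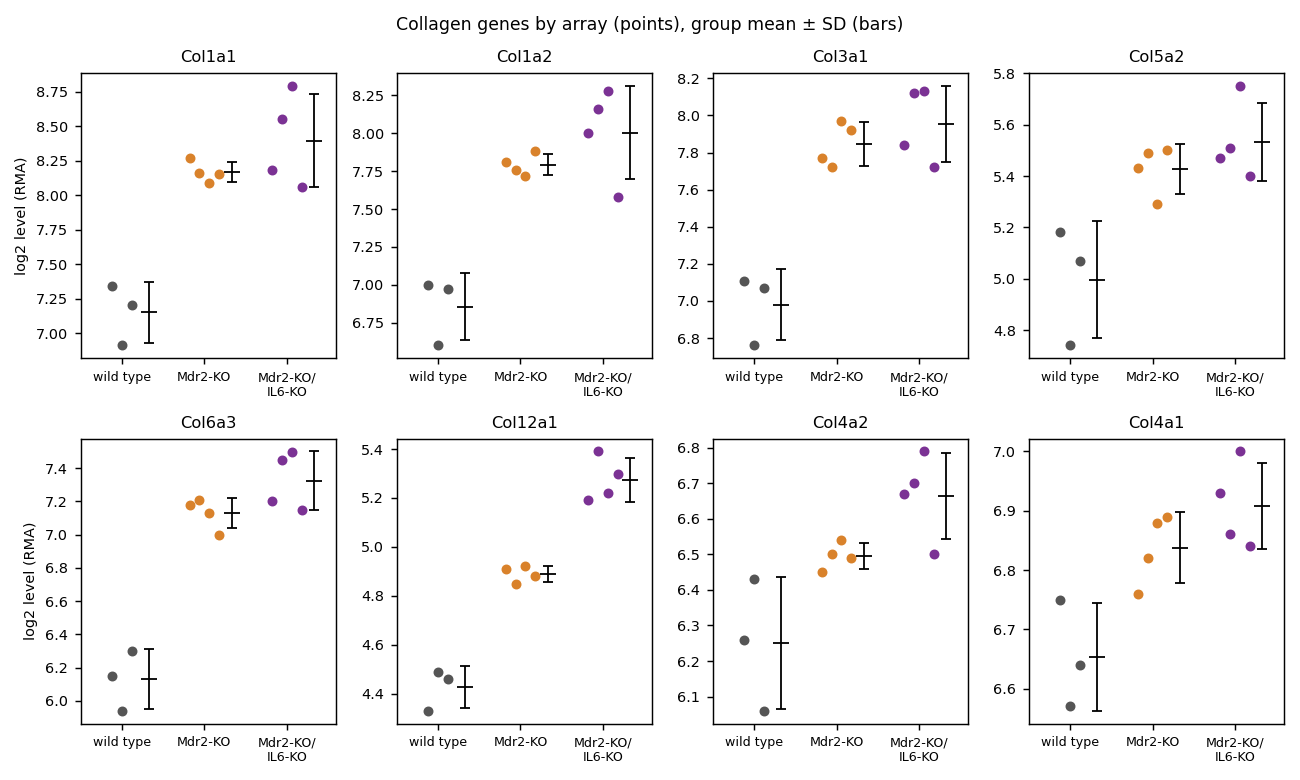
Log2 level (RMA, y axis) of 8 collagen genes in each array, with group mean and SD beside the points; each panel has its own y axis. In Col1a1, Col1a2, Col3a1, Col5a2, Col6a3, Col12a1, Col4a2 and Col4a1 every knockout array lies above the wild-type arrays, and only Col12a1 also separates the knockout groups.

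Type VI collagen forms microfilaments next to cells, classically from a Col6a1, a Col6a2 and a Col6a3 chain. Col6a3 measured 6.15, 5.94 and 6.30 in wild type, 7.18, 7.21, 7.13 and 7.0 in the Mdr2-KO arrays and 7.20, 7.45, 7.50 and 7.15 in the Mdr2-KO/IL6-KO arrays. The gap between the highest wild-type and the lowest knockout array was wider than the whole range within any group. Col6a3 rose 2.0-fold in Mdr2-KO (1.0 ± 0.11 SE, adjusted p = 0.000688, limma) and 2.29-fold in Mdr2-KO/IL6-KO liver (1.2, adjusted p = 6.57e-05). It passed against wild type under every alternative run.

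Its partners did not pass. Col6a1 measured 6.57, 6.55 and 6.70 in wild type, 7.01, 6.91, 6.70 and 6.59 in the Mdr2-KO arrays and 6.71, 6.86, 7.15 and 6.81 in the Mdr2-KO/IL6-KO arrays, with changes of 0.19 and 0.28 (adjusted p = 0.698 and 0.296, limma). Col6a2 measured 6.06, 6.14 and 6.24 in wild type, 6.51, 6.22, 6.18 and 6.25 in the Mdr2-KO arrays and 6.20, 6.27, 6.42 and 6.18 in the Mdr2-KO/IL6-KO arrays, with changes of 0.14 and 0.12. Col6a1 and Col6a2 lie next to each other on chromosome 10, apart from Col6a3 on chromosome 1. The change of Col6a3 exceeded that of Col6a1 by 0.81 in Mdr2-KO liver and 0.92 in Mdr2-KO/IL6-KO liver, and that of Col6a2 by 0.86 and 1.08. The per-array differences did not overlap with wild type in any of the 4 pairings, with exact permutation p = 0.0571 (0.114 adjusted). That is again the smallest p possible, so these pairs could not pass either. Col6a3, too, was set against its partners as the chain with the largest change. Each per-array difference was the level of one chain's probe set minus that of the other. Only its shift between groups was read, not its size within a group.

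Col6a4, Col6a5 and Col6a6, later-found chains that lie together on chromosome 9, did not pass with the probe sets used. Their changes were -0.12, 0.22 and 0.06 in Mdr2-KO liver and -0.10, 0.45 and 0.12 in Mdr2-KO/IL6-KO liver. Col6a5 depended on the probe set. Its used probe set (10596409) measured 5.19, 5.31 and 4.98 in wild type, 5.52, 5.74, 4.86 and 5.42 in the Mdr2-KO arrays and 5.35, 5.95, 5.90 and 5.25 in the Mdr2-KO/IL6-KO arrays (adjusted p = 0.847 and 0.32, limma). Its other, dimmer probe set (10596403) measured 4.40, 4.12 and 4.43 in wild type, 5.07, 4.98, 4.66 and 4.80 in the Mdr2-KO arrays and 5.63, 5.66, 5.87 and 4.93 in the Mdr2-KO/IL6-KO arrays. When each of the 21789 probe sets with a single symbol was tested on its own, this second probe set was 2.31-fold higher in Mdr2-KO/IL6-KO than in wild type (1.21 ± 0.18 SE, adjusted p = 0.00241) and did not pass in Mdr2-KO (0.56, adjusted p = 0.242). Whether the probe sets read different transcripts was not tested.

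**Figure D3:**
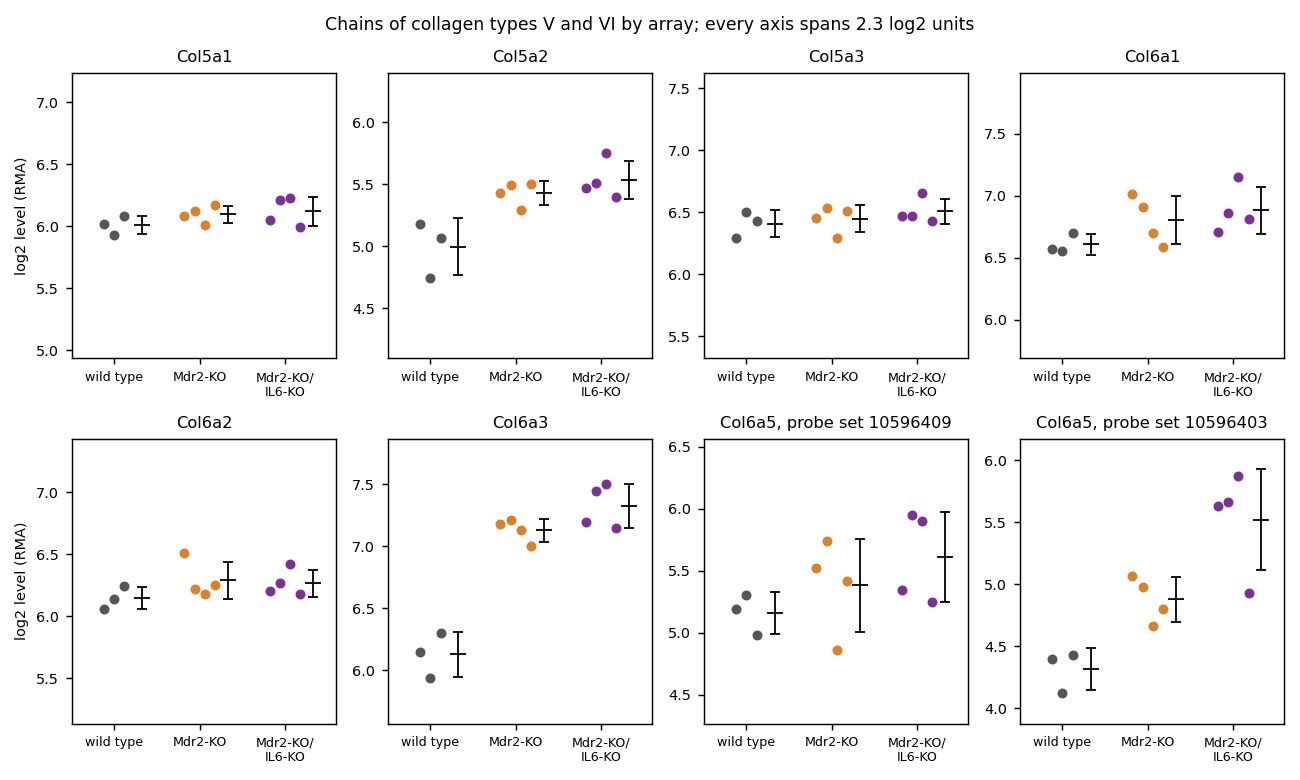
Log2 level (RMA, y axis) by array for chains of collagen types V and VI, with group mean and SD. Every panel spans 2.3 log2 units, so equal heights are equal measured log2 changes, while levels cannot be compared. Whether the probe sets of different chains respond alike was not tested. Col6a3 stands 1.0 and 1.2 above wild type in the knockout groups, Col6a1 0.19 and 0.28, and the 2 probe sets of Col6a5 differ.

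FACIT collagens bridge fibrils and the matrix around them, and Col12a1, the chain of type XII, coats type I fibrils. It was 1 of 9 members of this class to pass, in either comparison with wild type. Col12a1 measured 4.33, 4.49 and 4.46 in wild type, 4.91, 4.85, 4.92 and 4.88 in the Mdr2-KO arrays and 5.19, 5.39, 5.22 and 5.30 in the Mdr2-KO/IL6-KO arrays. The 3 groups did not overlap and stood in that order, although the gene's probe set lay below the median gene. Col12a1 rose 1.38-fold in Mdr2-KO (0.46 ± 0.08 SE, adjusted p = 0.0128, limma) and 1.80-fold in Mdr2-KO/IL6-KO liver (0.85 ± 0.08, adjusted p = 7.21e-05). Without wild-type replicate 1 the Mdr2-KO call was lost (adjusted p = 0.0765).

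Between the knockout groups Col12a1 was 0.38 ± 0.08 higher in Mdr2-KO/IL6-KO, 1.31-fold, with a 95% interval from 0.22 to 0.55. This ranked 13 of all genes by p (unadjusted p = 0.000202, limma) and did not pass adjustment (adjusted p = 0.311). Its knockout groups did not overlap, as was true for 1.6% of all genes in that direction. It was 1 of 54 genes, 0.271% of all genes, whose arrays stood without overlap in the order wild type, Mdr2-KO, Mdr2-KO/IL6-KO, and the only collagen gene among them.

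Col14a1, the chain of type XIV, also a fibril-surface collagen, measured between 8.55 and 8.97 in every array, with changes of 0.03 (95% interval -0.19 to 0.24) and 0.06 (-0.16 to 0.28). The other FACIT genes, Col9a1, Col9a2, Col9a3, Col16a1, Col19a1, Col20a1 and Col22a1, had changes from -0.16 to 0.06 in Mdr2-KO and from -0.13 to -0.01 in Mdr2-KO/IL6-KO liver. None of them passed.

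Type IV collagen is the network of basement membranes, and Col4a1 and Col4a2 are its ubiquitous chains. These genes lie head to head on chromosome 8, on opposite strands, with RefSeq transcript starts 21 bases apart. Col4a2 measured 6.26, 6.43 and 6.06 in wild type, 6.45, 6.50, 6.54 and 6.49 in the Mdr2-KO arrays and 6.67, 6.70, 6.79 and 6.50 in the Mdr2-KO/IL6-KO arrays. Col4a2 rose 1.33-fold in Mdr2-KO/IL6-KO (0.41 ± 0.10 SE, adjusted p = 0.0328, limma), and its change of 0.24 in Mdr2-KO did not pass (adjusted p = 0.418). The call was lost when any of 5 single arrays was left out, with the highest adjusted p, 0.167, without wild-type replicate 3; the others were wild-type replicate 1 and Mdr2-KO/IL6-KO replicates 1, 2 and 3.

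Col4a1 measured 6.75, 6.57 and 6.64 in wild type, 6.76, 6.82, 6.88 and 6.89 in the Mdr2-KO arrays and 6.93, 6.86, 7.0 and 6.84 in the Mdr2-KO/IL6-KO arrays. Its arrays also stood above wild type in both knockout groups, though only just in Mdr2-KO, and its changes of 0.18 and 0.25 did not pass (adjusted p = 0.497 and 0.124, limma). The changes of the head-to-head genes differed by 0.06 in Mdr2-KO liver and 0.16 in Mdr2-KO/IL6-KO liver, with exact permutation p = 0.686 and 0.286. The tissue-restricted chains Col4a3, Col4a4, Col4a5 and Col4a6 had changes from -0.04 to 0.18 and from -0.06 to 0.28, and none passed.

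The short-chain network collagens, Col8a1 and Col8a2 of vessel walls and Col10a1 of growth cartilage, gave no call. Col8a1 measured 5.35, 5.22 and 5.32 in wild type, 5.51, 5.44, 5.24 and 5.23 in the Mdr2-KO arrays and 5.28, 5.71, 5.93 and 5.44 in the Mdr2-KO/IL6-KO arrays. Mdr2-KO/IL6-KO replicate 1 lay within the wild-type range, and the change of 0.30 did not pass (adjusted p = 0.322, limma). In Mdr2-KO the lowest p of the class was that of Col8a2, with a change of -0.16 (adjusted p = 0.827).

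The multiplexins Col15a1 and Col18a1 are basement membrane collagens that carry sugar chains, and Col18a1, the parent of endostatin, is made by hepatocytes too. Col18a1 measured between 8.52 and 8.87 in every array, with changes of -0.08 and -0.01. Col15a1 measured 5.92, 5.91 and 5.92 in wild type, 6.05, 5.95, 5.98 and 6.10 in the Mdr2-KO arrays and 5.89, 6.10, 6.32 and 5.98 in the Mdr2-KO/IL6-KO arrays, with changes of 0.11 and 0.16 that did not pass (adjusted p = 0.85 and 0.531, limma). All Mdr2-KO arrays lay above wild type for Col15a1, by a narrow margin, and Mdr2-KO/IL6-KO replicate 1 lay below it.

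The transmembrane collagens Col13a1, Col17a1, Col23a1 and Col25a1 span the cell membrane, and Col7a1 forms the anchoring fibrils of skin. None of these passed. Col23a1, the transmembrane member with the lowest p in both comparisons with wild type, had changes of -0.08 and -0.15 (adjusted p = 0.919 and 0.649, limma). Col26a1 measured 6.25, 6.38 and 6.24 in wild type, 6.15, 6.25, 5.78 and 6.23 in the Mdr2-KO arrays and 6.24, 6.27, 6.44 and 6.21 in the Mdr2-KO/IL6-KO arrays. Its change of -0.19 in Mdr2-KO (adjusted p = 0.675) was the most negative of the family, with replicate 3 standing lowest. Col28a1 had changes of -0.11 and 0.06.

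Loss of interleukin 6 on the Mdr2-KO background gave 0 collagen calls with limma, also with the unmoderated linear model. With the probe sets used, 1 gene, Col12a1, had an unadjusted p under 0.05. At that level 2.78% of all genes were higher and 2.04% lower. The median difference over the 44 genes was 0.04, beside 0.01 over all genes, with 27 positive and 17 negative, where 53.9% of all genes were positive. Col1a1 differed by 0.23 (95% interval -0.09 to 0.54), Col1a2 by 0.21 (-0.08 to 0.51), Col3a1 by 0.11 (-0.14 to 0.35) and Col6a3 by 0.20 (-0.03 to 0.42). Col5a2 differed by 0.11 (-0.12 to 0.34), Col4a2 by 0.17 (-0.03 to 0.37) and Col4a1 by 0.07 (-0.09 to 0.23). With the probe sets used, the intervals of all 44 genes together ran from -0.37 to 0.64, that is, from 0.78-fold to 1.56-fold. Each gene's own interval bounds the difference it allows. The Col6a5 probe set that was not used (10596403) was 0.65 ± 0.17 (SE) higher in Mdr2-KO/IL6-KO than in Mdr2-KO, 1.57-fold. It did not pass (unadjusted p = 0.00217, adjusted p = 0.734, limma). In the other classes the lowest p belonged to Col26a1 (0.19), Col8a1 (0.24), Col17a1 (-0.10) and Col18a1 (0.08), each with an adjusted p of 0.9995 (limma).

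Single arrays stood high or low over many collagen genes. In the Mdr2-KO/IL6-KO group, replicate 3 was the highest in 6 of the 7 genes called in either comparison with wild type and in 22 of the 37 others, and replicate 4 was the lowest in 6 of the 7 and in 23 of the 37. In the Mdr2-KO group the 7 called genes had no common order, with replicate 3 the highest in 3 and the lowest in 3. In that group replicate 2 was the highest in 24 of the 37 uncalled genes and replicate 3 the lowest in 29. In wild type, replicate 2 was the lowest in 5 of the 7 called genes and in 14 of the 37 others. The median deviation of the 37 genes from the group mean was 0.19 in Mdr2-KO replicate 2 and -0.23 in replicate 3. Among all genes below the median gene the same arrays deviated by 0.10 and -0.10, and they had the highest and lowest array medians of the 11, 5.23 and 5.09. The part of this shift in the results was not tested; without both arrays, 4 collagen genes were called in Mdr2-KO (Col12a1 was lost) and 7 in Mdr2-KO/IL6-KO liver.

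**Figure D4:**
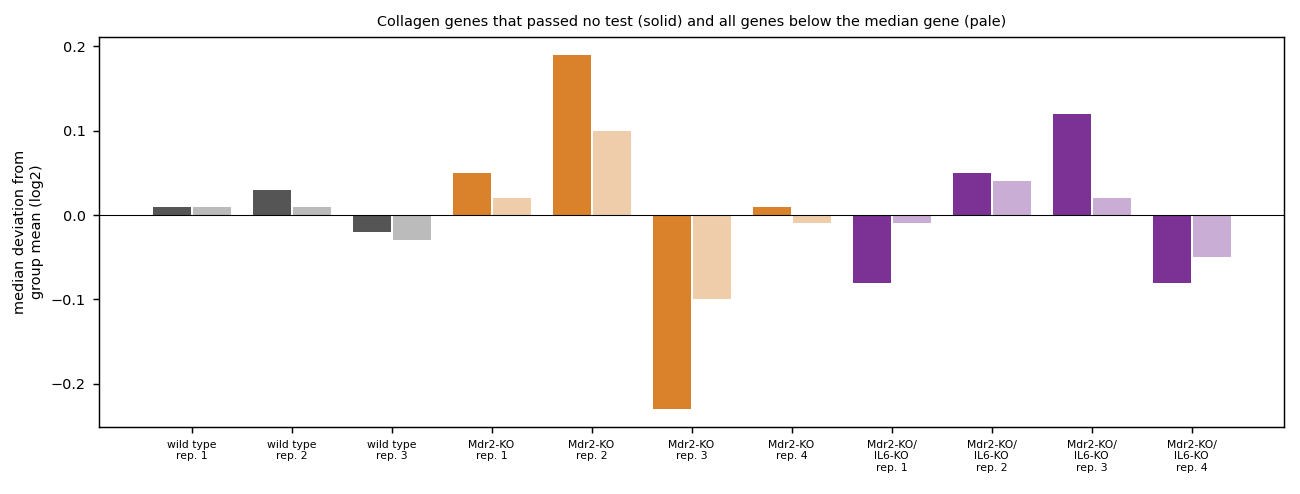
Median deviation from the group mean (log2, y axis) in each array, for the 37 collagen genes called in no comparison (solid bars) and for all genes below the median gene (pale bars). Mdr2-KO replicate 2 stands at 0.19 and replicate 3 at -0.23 for the collagens, against 0.10 and -0.10 for the low genes.

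Genes that make, process, bind and degrade collagen were read from 4 lists, beside a share of all genes called higher of 0.948% in Mdr2-KO liver and 2.91% in Mdr2-KO/IL6-KO. The median change of the folding, processing, receptor and breakdown lists was 0.12, 0.00, 0.10 and 0.38 in Mdr2-KO liver, beside 0.11, -0.00, 0.23 and 0.56 in Mdr2-KO/IL6-KO liver. Of 18 measured genes for folding and modification of the chains, 1 rose in Mdr2-KO liver and 2 in Mdr2-KO/IL6-KO liver. Plod2, the lysyl hydroxylase that prepares the ends of the chains for stable cross-links, measured 4.00, 3.96 and 4.06 in wild type, 4.46, 4.56, 4.43 and 4.52 in the Mdr2-KO arrays and 4.80, 4.40, 4.43 and 4.43 in the Mdr2-KO/IL6-KO arrays. It rose by 0.49 (adjusted p = 0.0314, limma) and 0.51 (adjusted p = 0.0115), and the Mdr2-KO call was lost without any single one of the 7 arrays compared, the Mdr2-KO/IL6-KO call without wild-type replicate 2 (adjusted p = 0.0516). Serpinh1, the collagen chaperone HSP47, rose by 0.48 in Mdr2-KO/IL6-KO (adjusted p = 0.0424), a call that 7 single arrays could end, with adjusted p up to 0.15; these were Mdr2-KO replicate 1, the 3 wild-type arrays and Mdr2-KO/IL6-KO replicates 1, 2 and 3. The prolyl hydroxylase genes P4ha1, P4ha2 and P4ha3 did not pass.

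Of 12 measured genes for procollagen processing and cross-linking, 3 rose in Mdr2-KO, and 5 rose and 1 fell in Mdr2-KO/IL6-KO. Loxl1, a lysyl oxidase that cross-links elastin and collagen, measured 5.29, 4.85 and 5.06 in wild type, 6.37, 5.78, 5.88 and 5.82 in the Mdr2-KO arrays and 5.95, 6.15, 6.39 and 5.93 in the Mdr2-KO/IL6-KO arrays. It rose 1.86-fold (adjusted p = 0.0127, limma) and 2.05-fold (adjusted p = 0.0023). Sparc, a collagen-binding matrix protein, rose by 0.60 (adjusted p = 0.0123) and 0.82 (adjusted p = 0.000702). Pcolce, the enhancer of the enzyme that trims procollagen, rose by 0.52 (adjusted p = 0.0128) and 0.51 (adjusted p = 0.00609). The Mdr2-KO calls of Loxl1 were lost without wild-type replicate 2 or 3 (adjusted p up to 0.0719), and those of Sparc and Pcolce without wild-type replicate 1 or 3 (up to 0.0621 and 0.0765).

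The other calls of that list were in Mdr2-KO/IL6-KO. The lysyl oxidases Lox and Loxl3 rose by 0.42 and 0.34 (adjusted p = 0.0471 and 0.0477, limma), and Loxl4, of the same enzyme family, fell by 0.43 (adjusted p = 0.0429). These calls lay close to the threshold and were not recomputed with an array left out.

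The 9 genes for collagen breakdown held 4 that rose in Mdr2-KO liver and 5 in Mdr2-KO/IL6-KO liver. Mmp2, the gelatinase that digests unwound collagen, measured 6.09, 5.82 and 6.27 in wild type, 7.63, 7.10, 6.95 and 6.92 in the Mdr2-KO arrays and 7.26, 7.43, 7.49 and 6.88 in the Mdr2-KO/IL6-KO arrays. Mmp2 rose 2.13-fold (adjusted p = 0.00951, limma) and 2.31-fold (adjusted p = 0.00213), and the Mdr2-KO call was lost without wild-type replicate 2 (adjusted p = 0.0533). The metalloproteinase inhibitors, which hold such enzymes back, were the other members called in both comparisons: Timp1 rose by 0.82 and 0.85, Timp2 by 0.73 and 0.88, and Timp3 by 0.77 and 0.80. Ctsk, the protease cathepsin K, rose by 0.56 in Mdr2-KO/IL6-KO (adjusted p = 0.0464), a call that was not recomputed with an array left out. The list's name therefore covers both enzymes and their inhibitors.

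Of 9 measured collagen receptors none passed in Mdr2-KO, and 3 rose in Mdr2-KO/IL6-KO: the receptor kinase Ddr1 by 0.50 (adjusted p = 0.018, limma), the uptake receptor Mrc2 by 0.47 (adjusted p = 0.0208) and the integrin chain Itga2 by 0.37 (adjusted p = 0.046). All 3 calls could be ended by leaving out 1 array: Ddr1 by any wild-type array (adjusted p up to 0.0722), Mrc2 by wild-type replicates 1 and 3 and Mdr2-KO/IL6-KO replicates 1 and 3 (up to 0.101), and Itga2 by 7 arrays (up to 0.144), namely the 3 wild-type arrays, Mdr2-KO replicate 4 and Mdr2-KO/IL6-KO replicates 1, 2 and 3. No gene of the 4 lists passed between the knockout groups, where the lowest p of each list belonged to Serpinh1, Sparc, Itga1 and Mmp8.

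**Figure D5:**
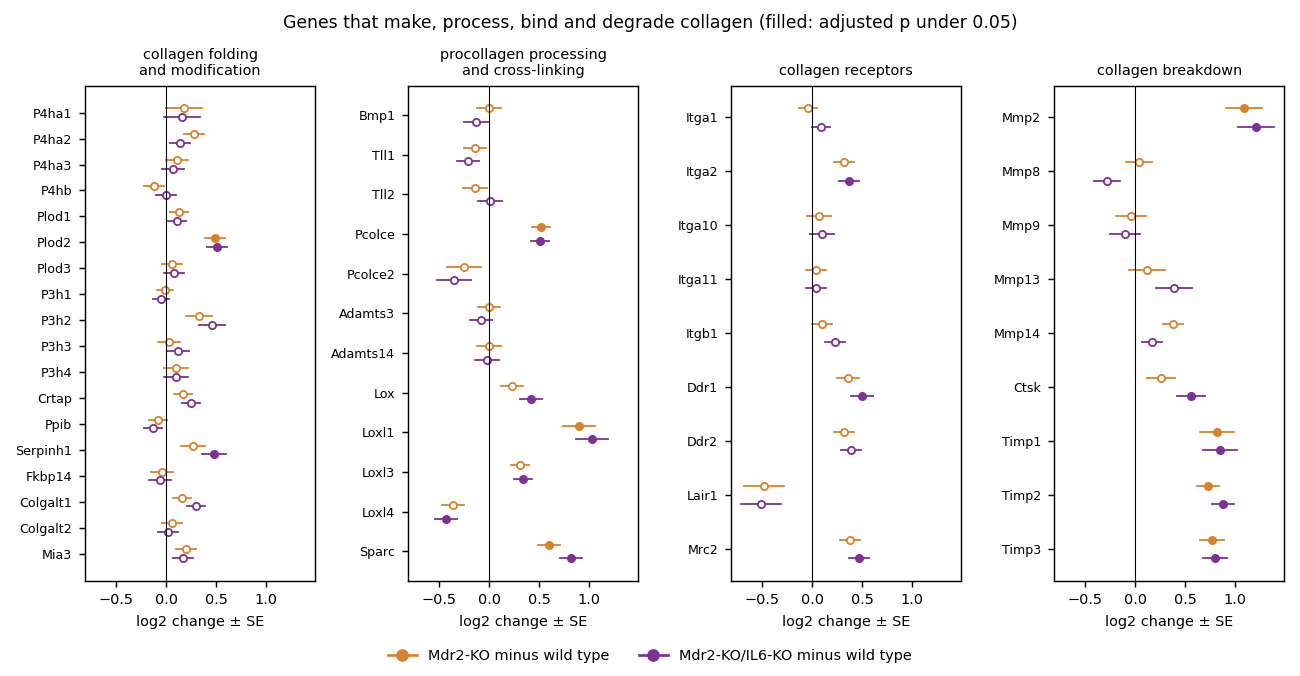
Log2 change with SE (x axis) of the measured genes of 4 lists, in Mdr2-KO (orange) and Mdr2-KO/IL6-KO (purple) against wild type; filled points passed at an adjusted p under 0.05. Mmp2 and Loxl1 stand farthest to the right, and Loxl4 is the only filled point to the left of 0.

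Some markers of other cell types rose in the knockout groups as well, where 0.948% (Mdr2-KO) and 2.91% (Mdr2-KO/IL6-KO) of all genes were called higher. Of 8 portal fibroblast markers, 2 rose in Mdr2-KO liver and 3 in Mdr2-KO/IL6-KO liver, and the list's mean per array went from 5.22 to 5.43 in wild type to 5.75 to 5.91 and 5.77 to 6.13 in the knockout groups. The members called in both comparisons were Dpt, a matrix protein of fibroblasts (1.61 and 1.76), and Cd34, also a marker of vessels (1.28 and 1.41). In Mdr2-KO/IL6-KO the elastin gene Eln was called too (0.48, adjusted p = 0.0333, limma). The portal fibroblast list had median changes of 0.27 and 0.44, well below those of Dpt and Cd34. Of its 8 markers, 6 had a positive change in Mdr2-KO liver and 7 in Mdr2-KO/IL6-KO liver. Thy1 (-0.07 and 0.00) and Gli1 (-0.04 and -0.01) hardly changed. Of 10 stellate cell markers, 1 rose in Mdr2-KO, Pdgfrb (0.72), and 3 in Mdr2-KO/IL6-KO, Pdgfrb (0.83), Cygb (0.46) and Rgs5 (0.74). The adjusted p in Mdr2-KO/IL6-KO was 0.036 for Cygb and 0.042 for Rgs5 (limma). In Mdr2-KO, Rgs5 had a change of 0.75 that did not pass (adjusted p = 0.0808), and Cygb one of 0.34 (adjusted p = 0.242). The stellate list was mixed: 5 of its 10 markers had a negative change in Mdr2-KO liver and 4 in Mdr2-KO/IL6-KO liver, with medians of -0.00 and 0.09. Ecm1, which encodes a matrix protein, lay below every wild-type array in both knockout groups, with changes of -0.33 and -0.37 that did not pass (adjusted p = 0.248 and 0.0859, limma). Stellate list means were 6.97 to 7.04, 7.03 to 7.17 and 7.14 to 7.25. Of 6 myofibroblast and smooth muscle markers, 0 passed in Mdr2-KO liver and 1 in Mdr2-KO/IL6-KO liver, Tagln (0.50, adjusted p = 0.0405, limma). Acta2 had changes of 0.14 and 0.05 (adjusted p = 0.878 and 0.936, limma). Myh11 went the other way, with changes of -0.12 and -0.23 that did not pass. In each comparison 4 of the 6 markers had a positive change and 2 a negative one, with medians of 0.06 and 0.03. Means of this list were 5.12 to 5.35, 5.16 to 5.42 and 5.17 to 5.32.

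Of the cell type lists, that of bile duct cells had the most calls. Of 7 measured, 4 rose in both comparisons, Krt19, Epcam, Cd24a and Tspan8, and list means were 5.39 to 5.61 in wild type, 6.44 to 6.67 in Mdr2-KO and 6.34 to 6.85 in Mdr2-KO/IL6-KO liver. Of 8 endothelial markers, 1, Lyve1, rose in Mdr2-KO/IL6-KO (0.66, adjusted p = 0.0357, limma). Endothelial list means were 6.98 to 7.32, 7.16 to 7.38 and 7.28 to 7.47. None of 6 mesothelial, 6 macrophage or 6 hepatocyte markers passed. Their list means were 4.78 to 4.95, 4.68 to 5.08 and 5.05 to 5.2 for mesothelial cells, 6.69 to 8.13, 6.78 to 7.43 and 6.88 to 7.19 for macrophages, and 12.34 to 12.38, 12.30 to 12.37 and 12.22 to 12.29 for hepatocytes. No marker passed between the knockout groups. The part of these cell types in the collagen changes was not tested.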

How the data were processed

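The authors deposited log2 expression values per probe set for 11 liver samples, made from biotinylated cRNA of snap-frozen tissue per the labels' protocols. RMA and Partek are named in the submitters' processing notes, and their versions and settings are not given in the sources used here. RMA evens out array distributions, so a shift of all genes would be lost, and it compresses changes of dim genes. Of 35557 probe sets, 21789 carried a single symbol, and the brightest per gene gave 19938 genes. Groups were compared with limma 3.58.1 (lmFit, eBayes) in R 4.3.3, on all 11 arrays with no covariate, a pipeline checked on simulated data. Pairs of chains were compared by exact permutation over arrays, where no comparison with wild type could give a p under 0.0571. For types V and VI the pairs set the chain with the largest change against its partners. The number of arrays limits the precision.

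All called collagens were named, with Col1a1, Col1a2, Col3a1, Col4a1 and Col4a2, else the lowest p of a class. Up to 3 called genes of a pathway list were to be named. The further called genes and markers were named after their values were seen, and were not recomputed under the alternatives. The members and lists were chosen with earlier results of these data known. Col21a1 had no probe set with a single symbol and is not analysed here, nor are 9 collagen promoters. Alternatives covered probe set choice, dim genes, normalization, variance model, array weights, thresholds and left-out arrays.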

Additional observations from a re-analysis of the deposited data

Results flagged for a closer look

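Of 88 groups of 4 arrays looked at, 3 held an array far from the others by Dixon's 95% criterion, and chance alone gives about 1 in 20. Col25a1, a transmembrane collagen of neurons, measured 4.86 in Mdr2-KO replicate 3 while the other arrays of the group lay between 5.25 and 5.30. Col6a4 measured 4.66 in the same array, against 4.93 to 4.98. Col4a3, a type IV chain of kidney basement membrane, measured 5.38 in Mdr2-KO/IL6-KO replicate 4, against 5.56 to 5.58.

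The Col6a5 probe set that did not represent the gene (10596403) differed from wild type by 0.56 in Mdr2-KO and by 1.21 in Mdr2-KO/IL6-KO, the latter past the threshold over all probe sets (limma, adjusted p = 0.00241).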

How the results depend on the processing

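Each count of called collagen genes was recomputed under 25 alternatives. The Mdr2-KO count of 5 fell to 2 with no moderation of the variance (Col12a1 and Col6a3 remained) and otherwise stayed at 4 or 5, also when 1 array was left out (4 to 5). The Mdr2-KO/IL6-KO count of 7 ran from 5 to 8, and from 5 to 7 with 1 array left out; the count of 8 came with Col6a5 when its probe sets were averaged or tested singly. Between the knockout groups the count was 0 under all of them. For single genes, 1307 of 1401 recomputed values kept direction and side of the threshold, 91 lost a call, 1 gained one (Mrc2 in Mdr2-KO) and 2 changed sign: Col23a1 in Mdr2-KO became 0.00 without Mdr2-KO replicate 3 (down to -0.17 without other arrays), and Col28a1 in Mdr2-KO/IL6-KO became -0.02 without Mdr2-KO/IL6-KO replicate 2 (up to 0.12); the cause was not tested. Scalings moved the median of all genes by at most 0.01 in size. Alternatives that left out both Mdr2-KO replicates 2 and 3, used the array median as a covariate or tested probe sets singly were chosen after seeing the data. No paired analysis was possible because the labels give no replicate numbers shared between groups. Probe sets near the floor limit what can be seen for the 19 dimmer collagens.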
